A study of Schizosaccharomyces pombe with 4 samples.

Results

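The mRNAs of 10 glycolytic and fermentation enzymes of fission yeast (Schizosaccharomyces pombe) were examined among the RNAs that cross-linked to Mkt1. They were chosen by name, as the cDNAs assigned to tdh1, pgk1, fba1, tpi1, pfk1, SPAC1F8.07c, eno101, gpm1, pyk1 or adh1 on the strand of the gene. All 10 were found, of 2087 genes with a cDNA on their strand. RNA bound to Mkt1, a post-transcriptional regulator that the study examined in RNAi-mediated silencing, had been isolated by CRAC. The method fixes RNA to protein in live cells by UV irradiation, pulls the protein out by its tag, and reads the attached RNA fragments as cDNA sequences. There were 2 libraries from h+ cells with mkt1-HTP-KanR, in which Mkt1 carries an HTP tag for the purification, and 2 from h+ cells without the tag, which give the background. Both strains also carried otr1R(Sph1):ade6+, ade6-210, leu1-32 and ura4D18, and both were cultured exponentially at 32 °C in PMG medium lacking tryptophan and irradiated for 42.5 s. The tagged strain is a single genotype, and the labels do not say whether more than 1 clone was used.

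Glycolysis splits glucose into pyruvate in the cytosol and yields ATP, and fermentation turns the pyruvate into ethanol, which returns the NAD+ that glycolysis consumes. Fission yeast ferments when glucose is plentiful, and the mRNAs of these enzymes are among the abundant mRNAs of a growing yeast cell. A cross-linked fragment is copied by reverse transcriptase, which can skip the cross-linked nucleotide, so that a deletion in a cDNA marks a candidate contact site. The abundance of the mRNAs was not part of these files, so a higher abundance and a more frequent contact per molecule cannot be told apart in a number of cDNAs.

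The Mkt1-HTP libraries 1 and 2 held 24468 and 26899 distinct cDNAs, and control libraries 1 and 2 held 1743 and 8142. Messenger RNA made up 48.5% and 41.8% of the Mkt1-HTP cDNAs and 9.01% and 5.88% of the control cDNAs. The 10 mRNAs had 445 and 400 cDNAs in the tagged libraries against 14 and 45 in the untagged ones. None of the 4 libraries had a cDNA antisense to any of them, and no cDNA lay over a second gene on the same strand. The genome sequence under 9 of the 904 cDNAs occurred at another place in the nuclear genome too, and all 9 belonged to tdh1 in Mkt1-HTP, so that those 9 are uncertain. Levels are given as counts, and as counts per 1000000 distinct cDNAs of the library (CPM), which were divided by gene length where genes are compared. Intervals given here cover counting error only, at 95%. They take each cDNA as independent, although 78.0% and 84.5% of the cDNAs of the 10 in Mkt1-HTP lay in groups of near-identical fragments. The intervals can therefore be too narrow, also where they leave out 1.

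Short stretches of the mRNAs on which the results turn are shown 5′ to 3′ in the sense of the mRNA, from the RefSeq genome sequence (ASM294v3, the same nuclear chromosome records as the build of the files), with T for U. The first 5 are those of the mRNAs with 3 or more deleted cDNAs in each Mkt1-HTP library, and capitals mark the run of equal bases that holds the base most often deleted:
tdh1, chrII:2808837-2808866, plus strand: tagatggatgacTTTTTTacaaatttcctc
pgk1, chrII:4157871-4157900, minus strand: attcctttcctaTTTTTacaatacaaatgt
pfk1, chrII:2297268-2297297, minus strand: ttcgctaggtcTTTTTTTTgagttatatat
SPAC1F8.07c, chrI:101795-101824, minus strand: cgttgtttggtaagAAtatgttacatttag
pyk1, chrI:3844883-3844912, minus strand: ttcttcttttttttGttgagaggatttata

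For gpm1 and fba1, the stretches around the base that the largest share of cDNAs covered in both Mkt1-HTP libraries are shown, with capitals for T. They were picked after their values were seen, because their cDNAs were the most concentrated of the 5 mRNAs with fewer than 3 deleted cDNAs in a Mkt1-HTP library:
gpm1, chrI:5173880-5173909, minus strand: caTTTcTaTgaTgTTgTaTaaTgcaaTTTc
fba1, chrII:1689457-1689486, plus strand: gaaagaTggaaaTgaTTgaaTagacggTgg

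Per length of gene, tdh1 had the highest level of the 10 mRNAs in Mkt1-HTP and pfk1 the lowest. The means were 2960 ± 614 CPM per kb for tdh1 (SD, n = 2), 1906 ± 581 for pgk1, 1261 ± 66.3 for fba1, 1112 ± 177 for SPAC1F8.07c, 881 ± 581 for gpm1, 820 ± 255 for adh1, 668 ± 102 for pyk1, 621 ± 329 for tpi1, 526 ± 267 for eno101 and 224 ± 23.5 for pfk1. Of the 9 pairs of neighbours in this order, 3 did not overlap between their libraries, namely tdh1 with pgk1, pgk1 with fba1, and eno101 with pfk1. The 7 mRNAs from fba1 to eno101 overlapped each with the next, so that their order is within the spread of the libraries. The last place of pfk1 rests on the division by its length of 3228 nt. Its mean of 723 CPM lay above those of gpm1 (697 CPM) and tpi1 (595 CPM). Because only distinct cDNAs are listed in the files, the levels of the most densely covered mRNAs are held back.

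**Figure D1:**
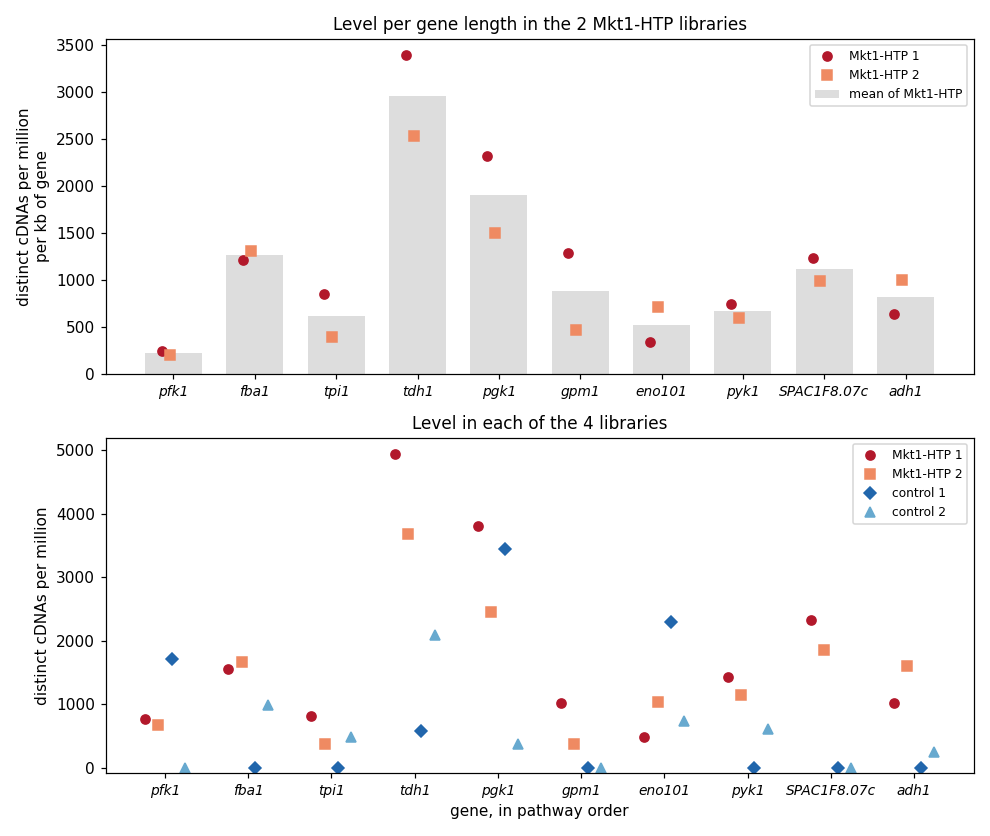
Upper panel, CPM per kb of gene in the 2 Mkt1-HTP libraries (points) with their mean (bars), by gene in pathway order. Lower panel, CPM in each of the 4 libraries, where both Mkt1-HTP points lie above both control points for 6 of the 10 genes.

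Of the mRNAs of the fructose phosphate steps, pfk1 had the lowest level per kb and tpi1 the lowest mean CPM, and fba1 was the only 1 of these mRNAs whose groups did not overlap. pfk1 (SPBC16H5.02, chromosome II, 2297164 to 2300391, minus strand) encodes phosphofructokinase, which adds the second phosphate to the sugar. It had 19 and 18 cDNAs in the tagged libraries against 3 and 0 in the untagged ones, where the 3 cDNAs of the shallow control library 1 came to 1721 CPM, above both Mkt1-HTP libraries at 777 and 669 CPM. fba1 (SPBC19C2.07, chromosome II, 1688321 to 1689599, plus strand) encodes the aldolase that splits the sugar into triose phosphates, and had 38 and 45 cDNAs in the tagged libraries against 0 and 8 in the untagged ones. The groups of pfk1 overlapped and those of fba1 did not, at 1613 ± 84.8 CPM in Mkt1-HTP (SD, n = 2) and 0 and 983 CPM in the control libraries. tpi1 (SPCC24B10.21, chromosome III, 939913 to 940869, plus strand), the triosephosphate isomerase that interconverts these, had 20 and 10 cDNAs against 0 and 4, at 817 and 372 CPM against 0 and 491 CPM. Its Mkt1-HTP library 2 was thus below control library 2, and the groups overlapped.

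In the steps that yield NADH and ATP, tdh1 and pgk1 held the most cDNAs of all 10. tdh1 (SPBC32F12.11, chromosome II, 2807595 to 2809051, plus strand), the glyceraldehyde-3-phosphate dehydrogenase, had 121 and 99 cDNAs in the tagged libraries against 1 and 17 in the untagged ones, or 4945 and 3680 CPM against 574 and 2088 CPM. The groups did not overlap, and Mkt1-HTP was 8.62 times the control among libraries numbered 1 (exact interval 1.52 to 343) and 1.76 times among those numbered 2 (1.05 to 3.15). The fitted log2 fold change of tdh1 was 1.49, was 0.69 with near-identical cDNAs counted once, and was -1.28 with mRNA cDNAs as library size. With that library size 3 of the 10 stood above 0, and among those below were fba1 (-1.51) and pyk1 (-1.22). pgk1 (SPBC14F5.04c, chromosome II, 4157821 to 4159461, minus strand), phosphoglycerate kinase, had 93 and 66 cDNAs against 6 and 3, or 3801 and 2454 CPM against 3442 and 368 CPM. The 6 cDNAs of control library 1 brought it above Mkt1-HTP library 2, and the ratio was 1.1 among libraries numbered 1 (0.489 to 3.1) and 6.66 among those numbered 2 (2.18 to 33.1).

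The mRNAs of lower glycolysis differed in their background. gpm1 (SPAC26F1.06, chromosome I, 5173864 to 5174654, minus strand) encodes phosphoglycerate mutase, which moves the phosphate, and had 25 and 10 cDNAs in Mkt1-HTP and none in either control library. The mean of its 1022 and 372 CPM in Mkt1-HTP was 2.3 times a floor of 3 counts over both control libraries (303 CPM). Without control library 1 it was 1.89 times the floor. The floor is no strict bound, since a single group of near-identical control cDNAs held 6 cDNAs in eno101. With control library 1 alone the value was below 1, so that no fold can be given. eno101 (SPBC1815.01, chromosome II, 2201196 to 2202652, plus strand), an enolase, had, like pfk1, a higher mean CPM in the control. Its 12 and 28 cDNAs stood against 4 and 6, or 490 and 1041 CPM against 2295 and 737 CPM. Its ratio was 0.214 among libraries numbered 1 (0.0648 to 0.909) and 1.41 among those numbered 2 (0.574 to 4.17), and the groups overlapped. pyk1 (SPAC4H3.10c, chromosome I, 3844743 to 3846675, minus strand), the pyruvate kinase that makes pyruvate and ATP, had 35 and 31 cDNAs against 0 and 5, and its groups did not overlap at 1430 and 1152 CPM against 0 and 614 CPM.

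Both fermentation mRNAs were above the control in every library. SPAC1F8.07c (named pdc101 in RefSeq; chromosome I, 101715 to 103597, minus strand, with 2 exons where the other 9 genes have 1) encodes a predicted pyruvate decarboxylase, the first enzyme of ethanol formation, and had 57 and 50 cDNAs in Mkt1-HTP and none in the control. Its 2330 and 1859 CPM lay above what 3 counts would come to in each control library, 1721 CPM in library 1 and 368 CPM in library 2. Its mean in Mkt1-HTP was 6.90 times the floor over both control libraries, 5.68 times without control library 1 and 1.22 times without control library 2. As for gpm1, this floor is no strict bound. adh1 (SPCC13B11.01, chromosome III, 1591292 to 1592889, plus strand), the alcohol dehydrogenase that makes ethanol and NAD+, had 25 and 43 cDNAs against 0 and 2, or 1022 and 1599 CPM against 0 and 246 CPM. Its ratio among libraries numbered 2 was 6.51 (1.70 to 55.5). fba1, tpi1, gpm1, pyk1 and adh1 had no cDNA in control library 1 either, but all their levels in Mkt1-HTP lay below the 1721 CPM that 3 counts would come to there, so that a difference from that library was not detectable at this depth.

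Over the 418 genes with 10 or more cDNAs, 13 were higher in Mkt1-HTP and 7 in the control at an adjusted p of 0.05 (edgeR's quasi-likelihood test, two-sided, Benjamini-Hochberg adjustment over all 418 genes). Of the 10 mRNAs, 1 passed, SPAC1F8.07c, with an adjusted p of 0.0271 in edgeR, where 3.11% of all tested genes were called higher and 1.67% lower. SPAC1F8.07c had no control cDNA and met the count minimum through Mkt1-HTP alone, as did gpm1 and every other tested gene without a control cDNA. Such genes could enter the test only by being high in Mkt1-HTP, so that the call is no independent support. The other 9 had adjusted p-values of 0.318 to 0.842 in the same edgeR fit. The groups did not overlap in CPM, with Mkt1-HTP above, for 6 of the 10 (tdh1, fba1, SPAC1F8.07c, gpm1, pyk1 and adh1), and for 55.5% of all tested genes, so that the share among the 10 was near the background. The median log2 ratio of mean CPM, with a gene without control cDNAs set against the floor of 3 counts, was 1.49 over the 10 and 0.09 over all 418 genes. The order of these medians rests on how genes without control cDNAs are set, since the medians of the fitted log2 fold changes were 1.38 over the 10 and 4.77 over all, and -1.39 and 4.56 with mRNA cDNAs as library size. Of the 418, 248 (59.3%) had no control cDNA and were set against that floor, as were 2 of the 10. Over genes with a control cDNA, the median was 1.49 for 8 of the 10 and 0.59 for 170 tested genes. The tested genes were not limited to mRNAs, and mRNA as a class made up more of the Mkt1-HTP cDNAs than of the control cDNAs. These medians thus do not set the 10 against other mRNAs. The call of SPAC1F8.07c was lost without Mkt1-HTP library 1 (adjusted p 0.593), without Mkt1-HTP library 2 (0.531) and without control library 2 (0.149). It was also lost with mRNA cDNAs as library size (0.657), without a count minimum (0.128), with the replicate number as a block (0.615) and in DESeq2 (0.378). Without control library 1 it was kept at an adjusted p of 2.95e-06 in edgeR, and pgk1 passed as well, with a log2 fold change of 3.06 and an adjusted p of 9.96e-05.

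Together the 10 mRNAs made up 1.82% (Wilson interval 1.66 to 1.99) and 1.49% (1.35 to 1.64) of all cDNAs in Mkt1-HTP, and 0.803% (0.479 to 1.34) and 0.553% (0.413 to 0.739) in the control. The groups did not overlap, at 1.65 ± 0.235% against 0.678 ± 0.177% (SD, n = 2 each), with p = 0.33 in an exact two-sided permutation test over the 4 libraries, the smallest p that 2 against 2 allows. Among mRNA cDNAs alone, the direction was the opposite, at 3.75% and 3.56% in the tagged libraries against 8.92% and 9.39% in the untagged ones. The control libraries thus had few mRNA cDNAs, and a larger part of those few came from these enzymes than in Mkt1-HTP (p = 0.33 in the same exact test).

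A list of 15 other genes of sugar uptake, glycolysis, fermentation and the neighbouring reactions was sparse. All 15 were found in the annotation, 4 had no cDNA in any library, and the 7 with 10 or more cDNAs were tested and did not pass (adjusted p 0.379 to 0.484 in edgeR). The 4 without a cDNA were eno102, the enolase paralog, the predicted pyruvate decarboxylase genes SPAC13A11.06 and SPAC186.09, and fbp1, the fructose-bisphosphatase of gluconeogenesis. hxk2, a hexokinase, had 7 and 18 cDNAs in Mkt1-HTP and none in the control. gpd3, the other glyceraldehyde-3-phosphate dehydrogenase, had 6 and 10 and none in the control. The third pyruvate decarboxylase gene on the list, SPAC3G9.11c, had 7 and 1 cDNAs and none in the control. atd1, an aldehyde dehydrogenase, was the only gene on this list with control cDNAs, with 10 and 9 in Mkt1-HTP against 0 and 12.

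Within the mRNAs, cDNAs were located by their middle, and those with the middle in the last 20% of the annotated gene were counted as near the 3′ end. Over the 10 mRNAs, 319 of 445 cDNAs (71.7%, Wilson interval 67.3 to 75.7) and 257 of 400 (64.3%, 59.4 to 68.8) were near the 3′ end in Mkt1-HTP. Other mRNAs stood at 69.7% in both Mkt1-HTP libraries, so that the enzymes' mRNAs lay on either side of them. In the control, 9 of 14 (64.3%, 38.8 to 83.7) and 5 of 45 (interval 4.84 to 23.5) were near the 3′ end, and other mRNAs stood at 57.3% and 35.0%. The means of 68.0 ± 5.26% and 37.7 ± 37.6% (SD, n = 2 each) gave p = 0.667 in the exact permutation test, and differed by 7.40 percentage points among libraries numbered 1 and 53.1 among those numbered 2. The difference in means of 30.3 became 3.68 without control library 2 and 56.9 without control library 1.

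**Figure D2:**
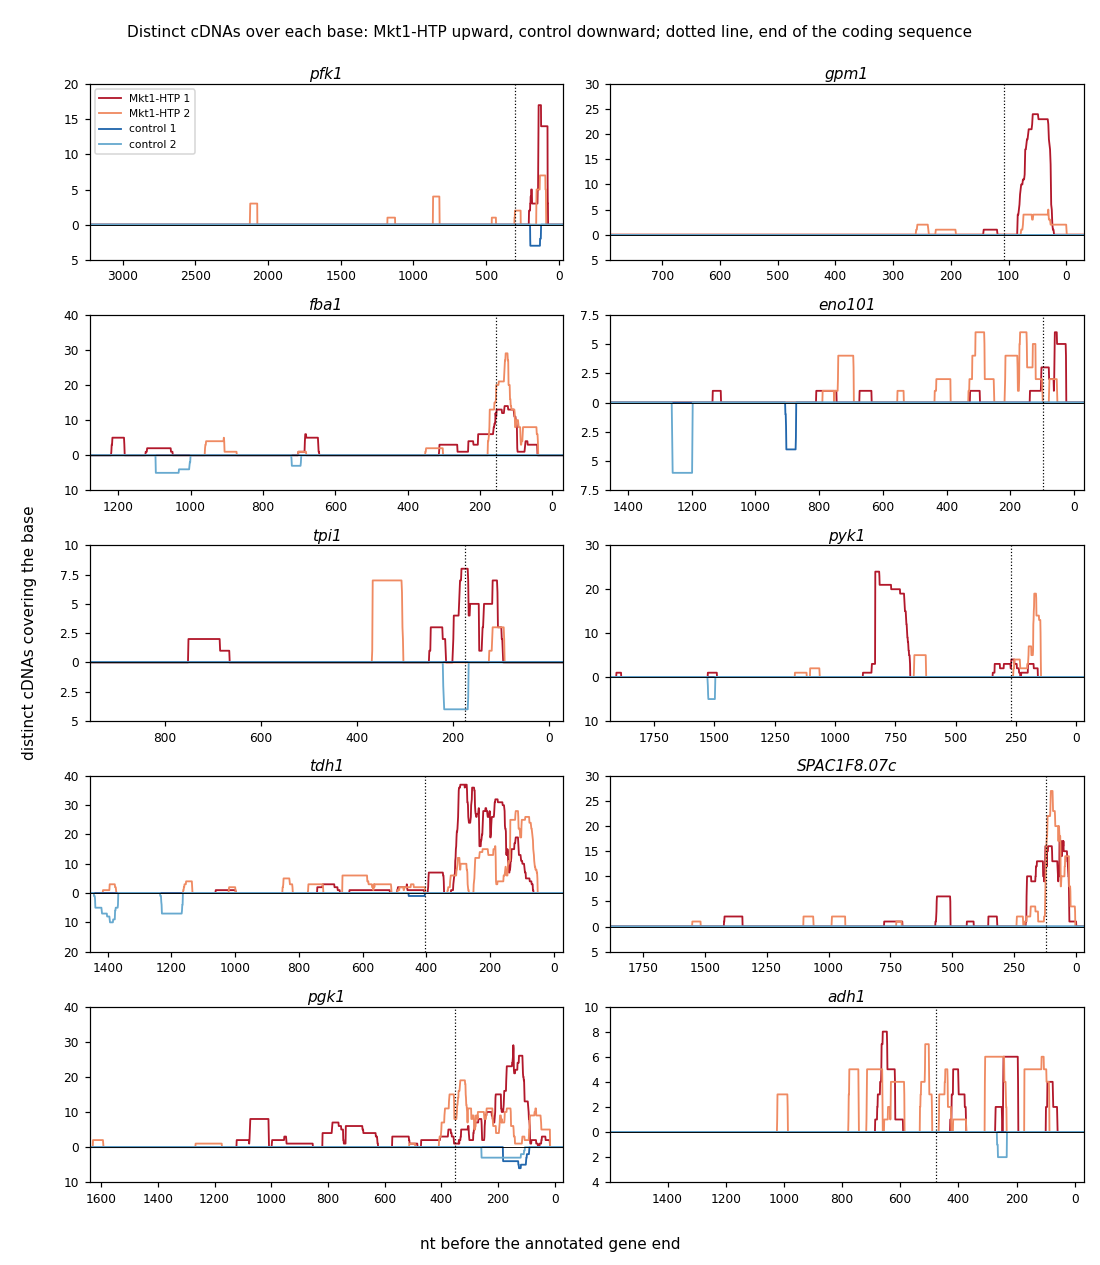
Number of distinct cDNAs over each base (vertical axis, Mkt1-HTP upward, control downward) against the distance in nt before the annotated gene end, for each of the 10 genes. The dotted line marks the end of the coding sequence, and control cDNAs of tdh1, fba1, tpi1, eno101 and pyk1 have their middle to its left while those of pgk1, pfk1 and adh1 have it to its right.

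gpm1, pfk1, fba1, SPAC1F8.07c and tpi1 each had a base in the 3′ UTR that at least 29.8% of the cDNAs covered in both Mkt1-HTP libraries. Each base was chosen for the highest share that both libraries reached, so that its coverage in both is no independent sign of agreement. Of the gpm1 cDNAs, 25 of 25 and 7 of 10 were in the last 20%, and 88.0% and 50.0% covered the same base, 31 nt before the gene end. Of the pfk1 cDNAs, 19 of 19 and 10 of 18 were in the last 20%, and 73.7% and 38.9% covered the base 112 nt before the end, although the 3′ UTR is only 9.36% of this long gene. In fba1, 36.8% and 64.4% covered the base 128 nt before the end, and 57.9% and 82.2% lay in the last 20%. SPAC1F8.07c had 82.5% and 88.0% in the last 20% and 29.8% and 36.0% over the base 65 nt before the end. tpi1, with few cDNAs, had 7 of 20 and 3 of 10 over the base 112 nt before the end. Its highest coverage lay elsewhere, in the coding sequence, 176 nt before the end in library 1 and 337 nt before it in library 2. No control cDNA covered these bases, but gpm1 and SPAC1F8.07c had no control cDNA at all. With only 8, 4 and 3 control cDNAs, fba1, tpi1 and pfk1 had too few to measure a background at a single base. For pfk1 the 3 cDNAs of control library 1 lay in the same 3′ UTR, between nt 3031 and 3105, and all 3 overlapped cDNAs of Mkt1-HTP library 1, whose highest coverage was at nt 3089 to 3105.

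tdh1 and pgk1, with many cDNAs, were covered more broadly over their long 3′ UTRs. In tdh1, 103 of 121 and 62 of 99 cDNAs were in the last 20%, the highest coverage was 287 nt before the end in library 1 and 116 nt before it in library 2, and 75.6% and 72.7% of the bases covered in one library were covered in the other. In pgk1, 59 of 93 and 43 of 66 were in the last 20%, the most even pair of shares among the 10 at this cutoff (63.4% and 65.2%). The pair was less even in the last 30% (68.8% and 93.9%) and beyond the coding sequence (63.4% and 77.3%). The base of pgk1 that both Mkt1-HTP libraries covered most, 163 nt before the end, was also covered by 4 and 3 control cDNAs, so that here the control lay over the same stretch as Mkt1-HTP. For tdh1 none of the 18 control cDNAs was in the last 20%. The 17 of control library 2 fell between nt 14 and 292 of the gene, where 10 of them overlapped cDNAs of Mkt1-HTP library 2, and the 1 of control library 1 overlapped cDNAs of Mkt1-HTP library 1.

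Of the shares of the 10 mRNAs near the 3′ end, that of pyk1 differed most between the Mkt1-HTP libraries, with 9 of 35 cDNAs (25.7%, Wilson interval 14.2 to 42.1) in the last 20% in library 1 and 23 of 31 (74.2%, 56.8 to 86.3) in library 2. tpi1 had 15 of 20 and 3 of 10 there, and eno101 8 of 12 and 16 of 28 (66.7% and 57.1%). The eno101 shares lay closer together at this cutoff, but not in the last 10%, at 66.7% and 17.9%. Beyond the coding sequence lay 7 of 12 and 2 of 28 eno101 cDNAs. The highest coverage of eno101 was 57 nt before the end in library 1, and 296 nt before it, in the coding sequence, in library 2. adh1 had the lowest mean share, with 12 of 25 (48.0%) and 12 of 43 (27.9%), but its 3′ UTR makes up 29.9% of its length, and 68.0% and 41.9% of its cDNAs lay beyond the coding sequence. In order of the mean of both libraries, SPAC1F8.07c stood first at 85.2 ± 3.92%, followed by gpm1 (85.0 ± 21.2%), pfk1, tdh1, fba1, pgk1, eno101, tpi1, pyk1 and adh1 (38.0 ± 14.2%). Each gene overlapped with the next in this order, so that neighbours did not differ beyond their spread.

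**Figure D3:**
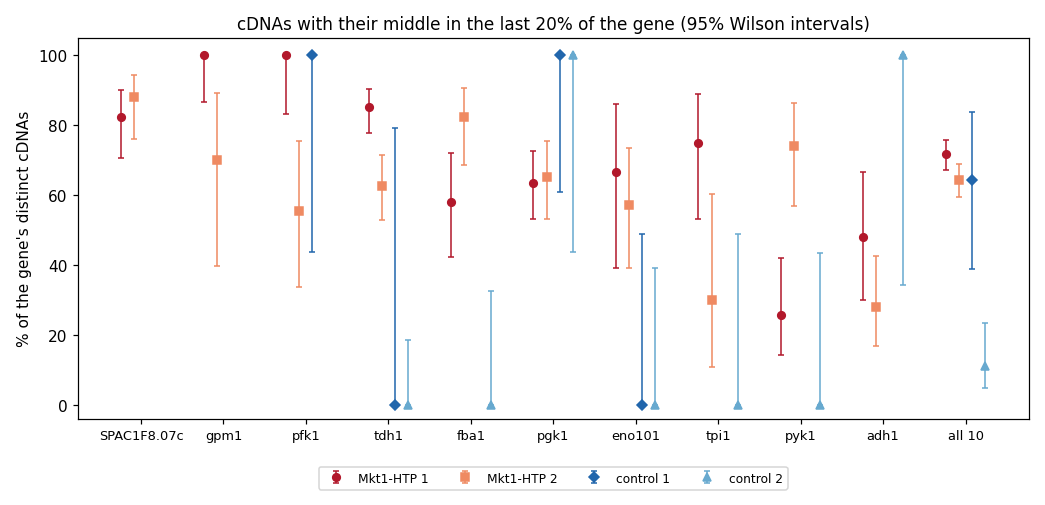
Percentage of each gene's distinct cDNAs with their middle in the last 20% of the gene, by library, with 95% Wilson intervals, genes ordered by the Mkt1-HTP mean. SPAC1F8.07c stands at 82.5% and 88.0%, while the 2 Mkt1-HTP libraries of pyk1 stand at 25.7% and 74.2%.

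In the control, 7 of the 10 mRNAs had no cDNA with its middle in the last 20%, and pgk1 (6 and 3), pfk1 (3 and 0) and adh1 (0 and 2) had all theirs there. Of the 7, gpm1 and SPAC1F8.07c had no control cDNA at all. All 4 control cDNAs of tpi1 overlapped the last 20% without having their middle in it. When cDNAs with the middle in the last 20% of a gene were tested alone, an alternative added after the data had been seen, 0 of the 10 passed. An unadjusted p under 0.05 was found for 3 of the 10 and for 17 of all 146 genes tested. The 3 were tdh1, SPAC1F8.07c and fba1, which had no control cDNA there and met the count minimum through Mkt1-HTP alone. Their number cannot be read as an excess. The same test called 1.37% of 146 genes higher in edgeR. For tdh1 the log2 fold change was then 8.64 with an adjusted p of 0.198, against 1.49 with an adjusted p of 0.450 over the whole gene. The fitted value of 8.64 rests on a control with no cDNA and is no estimate of a size.

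cDNAs that begin and end within 2 nt of each other were joined into stacks, to see how many positions a count rests on. The 445 and 400 cDNAs of Mkt1-HTP formed 185 and 162 stacks, and the 14 and 45 of the control formed 8 and 20. Stacks of 2 or more held 78.0% and 84.5% of the cDNAs in the tagged libraries against 71.4% and 75.6% in the untagged ones. Only 7.19% and 11.8% of the cDNAs in Mkt1-HTP were identical to another at both ends. The files list only distinct cDNAs, so that this share was kept low by the processing and is no result about the fragments. Counts per gene thus came in groups of near-identical fragments in tagged and untagged libraries alike.

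tdh1 and pgk1 rested on the most positions and gpm1, pfk1 and tpi1 on the fewest. tdh1 formed 46 and 41 stacks and pgk1 41 and 25, with 7.58% to 12.1% of the cDNAs in the largest stack of each library. SPAC1F8.07c formed 21 stacks in both libraries, the largest with 7 of 57 and 9 of 50 cDNAs. The 10 tpi1 cDNAs of library 2 formed 3 stacks, of which 1 held 7 cDNAs between nt 589 and 653, in the coding sequence. gpm1 formed 7 and 6 stacks and pfk1 6 and 8, and 12 of the 19 pfk1 cDNAs of library 1 were in 1 stack. The shift of pyk1 between libraries lay in a few stacks as well. In library 1, 21 of 35 cDNAs shared their 5′ end at nt 1100 of the gene, with 19 different 3′ ends between nt 1165 and 1244, and in library 2, 13 of 31 were in 1 stack of the 3′ UTR between nt 1754 and 1786.

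Several control counts were single stacks. The 4 and 6 control cDNAs of eno101, the 4 of tpi1 and the 5 of pyk1 were each 1 stack, with the middle in the coding sequence, and eno101 had its stack at nt 551 to 584 in control library 1 and at nt 195 to 259 in control library 2. With near-identical cDNAs counted once, the fitted log2 fold change of eno101 went from -0.78 to 1.06, and it did not pass in either fit (adjusted p 0.643 and 0.563 in edgeR). An interval identical to one of a Mkt1-HTP library was found for 1 of the 14 cDNAs of control library 1, in pfk1, and for 0 of the 45 of control library 2.

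**Figure D4:**
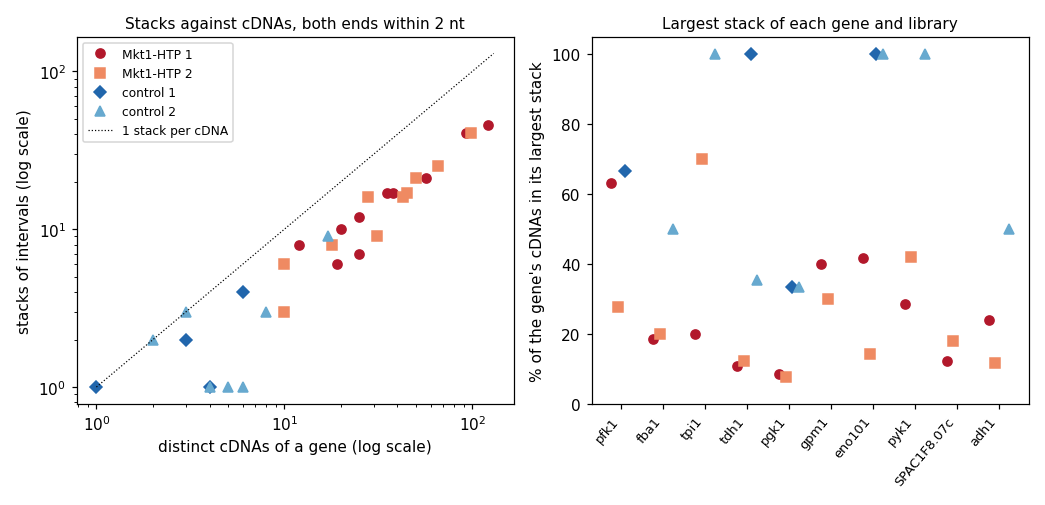
Left panel, number of stacks (both ends within 2 nt) against number of distinct cDNAs for each gene and library, log axes, with the dotted line at 1 stack per cDNA. Right panel, percentage of a gene's cDNAs in its largest stack, by gene and library, which is 100% for eno101 in both control libraries.

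Deletions followed the replicate number more than the tag in the libraries as a whole, at 12.97% and 25.3% of all cDNAs in the tagged libraries against 12.3% and 27.7% in the untagged ones. In the 10 mRNAs, 43 of 445 cDNAs (9.66%, Wilson interval 7.25 to 12.8) and 104 of 400 (26%, 21.9 to 30.5) carried a deletion in Mkt1-HTP, and 1 of 14 (7.14%, 1.27 to 31.5) and 3 of 45 (6.67%, 2.29 to 17.9) in the control. The means of 17.8 ± 11.6% and 6.90 ± 0.337% (SD, n = 2 each) gave p = 0.33 in the exact permutation test, and differed by 2.52 percentage points among libraries numbered 1 and by 19.3 among those numbered 2. Without Mkt1-HTP library 2 the difference in means was 2.76 percentage points, and without Mkt1-HTP library 1 it was 19.1. Other mRNAs stood at 13.6% and 24.8% in Mkt1-HTP and at 3.50% and 25.6% in the control.

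SPAC1F8.07c and tdh1 held the most deleted cDNAs. In SPAC1F8.07c, 9 of 57 and 22 of 50 cDNAs carried a deletion, and in tdh1 9 of 121 and 36 of 99, so that library 2 was higher in both. pfk1 stood at 5 of 19 and 3 of 18, pyk1 at 5 of 35 and 5 of 31, and pgk1 at 4 of 93 and 11 of 66. fba1 (1 of 38 and 13 of 45) and tpi1 (0 of 20 and 7 of 10) had nearly all theirs in library 2, and eno101 (6 of 12 and 2 of 28) and gpm1 (3 of 25 and 0 of 10) had more in library 1. adh1 had 1 of 25 and 5 of 43. Among control cDNAs, tdh1 had 2 of 17 and fba1 1 of 8 in library 2, and pgk1 1 of 6 in library 1.

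**Figure D5:**
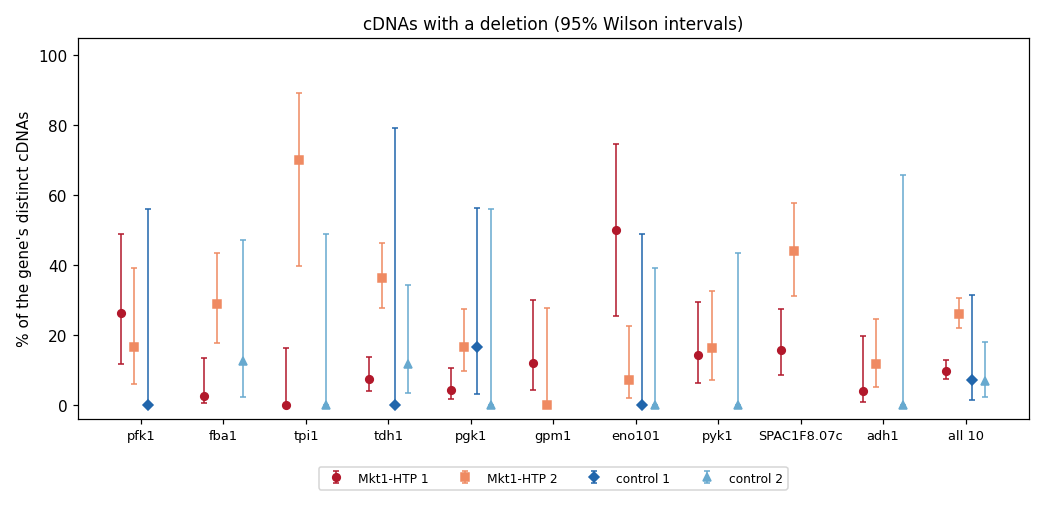
Percentage of each gene's distinct cDNAs that carry a deletion, by library, with 95% Wilson intervals, genes in pathway order. Over all 10 genes the Mkt1-HTP libraries stand at 9.66% and 26% and the control libraries at 7.14% and 6.67%.

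The base most often deleted was mostly seen in 1 library. In tdh1 it lay in the run of 6 U of the sequence above, 202 nt before the gene end, and was deleted in 11 of 13 cDNAs that covered it in library 2, all of 1 stack, and in 0 of 27 in library 1. In SPAC1F8.07c, a base in the AA of the sequence above was deleted in 9 of 25 covering cDNAs in library 2, in 2 stacks, and in 0 of 13 in library 1. In pgk1 the run of 5 U had 5 of 9 in library 2, all of 1 stack, and 0 of 1 in library 1. The G of pyk1 had 4 of 14 in library 2, all of 1 stack, with no covering cDNA in library 1. pfk1 was the exception, since the run of 8 U was deleted in 5 of 14 cDNAs in library 1 and in 1 of 7 in library 2. The 5 were all of 1 stack, so that each library rests on 1 group of near-identical fragments. Which base of a run was lost cannot be told.

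In the other mRNAs with such a base it was seen in 1 library too. fba1 had a U 100 nt before the end with 6 of 9 in library 2 (1 stack) and 0 of 9 in library 1. adh1 had a U 116 nt before the end with 5 of 5 in library 2 (2 stacks) and no coverage in library 1. tpi1 had an A in the coding sequence with 7 of 7 in library 2, the stack named above. eno101 had a G 40 nt before the end with 5 of 5 in library 1 (1 stack), and neither base was covered in the other library. No control cDNA covered any of these bases, so that the background of a deletion at them could not be measured. Positions deleted in both Mkt1-HTP libraries numbered 5 in all. They were the pfk1 run, U 291 nt before the end of tdh1 (1 of 37 and 7 of 10), U 248 nt before its end (4 of 35 and 3 of 7), and an A and a U 92 and 91 nt before the end of SPAC1F8.07c (2 of 13 in library 1 for both, and 4 and 3 of 23 in library 2), just after the AA shown. Of the deleted bases, 49.2% of 59 in library 1 and 40.3% of 216 in library 2 were U, against 42.5% of the bases of the 3′ UTRs of these genes and 29.9% of all their bases.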

How the data were processed

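Per the labels and the methods, the authors removed adapters (Flexbar), barcodes, PCR duplicates and tRNA reads (STAR 2.7.1a) before Novoalign 3.09.02 aligned the rest to ASM294v2, and pyReadCounters counted them (Counters 1.4.4 in the file headers). The deposited counts are 1 in every row, a row being a distinct cDNA. Mapped cDNAs numbered 544192 and 483073 (Mkt1-HTP), 27996 and 135763 (control) in the headers. Since very abundant RNAs repeat ends, their counts are held back.

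Genes were assigned to cDNAs by name and strand, using the RefSeq annotation, in which 98.0% of 2552 gene identifiers were found, and 99.7% of assigned cDNAs overlapped their gene. Deletion positions were checked against the sequence: at all 1828 distinct positions of single-base deletions, the base differed from the preceding one. Coordinates thus count from 1 and a deletion sits at the lowest coordinate of its run. Positions within a gene count from its annotated 5′ end, any intron included.

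Genes with 10 or more cDNAs over the 4 libraries were tested with edgeR 4.0.16 in R 4.3.3 (glmQLFit, glmQLFTest, library size all distinct cDNAs, group only). Its spread was pooled over all genes (common dispersion 0.928), so its p-value does not measure a gene's own spread. The series describes the 2 libraries of a group as biological replicates. A group left with 1 library was taken to vary as the other group does. DESeq2 1.42.0 was an alternative. Shares have Wilson intervals and ratios exact ones (scipy 1.17.1), at 95%. The script was tested on simulated data. Same-numbered libraries of the groups share a sequencing index. The adapter list and the descriptions in the labels disagree on which pair is number 1. Named were all 10 members, a list of 15 other pathway genes, and bases with 3 or more deleted cDNAs. Members and lists were chosen with earlier results of these data known.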

Additional observations from a re-analysis of the deposited data

How the results depend on the processing

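The edgeR test called 13 genes higher, 7 lower and 1 of the 10 members. It called 0, 10 and 0 with mRNA cDNAs as library size, 7, 0 and 0 with DESeq2, 10, 2 and 0 without a count minimum, 21, 3 and 1 with a minimum of 20, and 2, 0 and 0 in the last 20% of each gene, which was added after the data were seen. At an unadjusted p under 0.05 DESeq2 had 20 genes, 1 of them a member, and the fit on mRNA cDNAs had 54, none of them a member. With 1 library left out, calls ranged from 0 to 26 genes higher, 3 to 6 lower and 0 to 2 members. Over its 14 alternatives, the adjusted p of SPAC1F8.07c ranged from 2.95e-06 to 0.657, and it lost its call in 8. These were mRNA library size (0.657), DESeq2 (0.378), no minimum (0.128), the replicate block, the last 20% (0.221) and the libraries named in the report. The fit with the replicate number as a block, which the labels do not tie to a shared culture, called 5 genes higher, 2 lower and 0 members (SPAC1F8.07c 0.615). Deviations of same-numbered libraries correlated at 0.06 over 418 genes, and at -0.0016 over the 27 with 10 or more control cDNAs. Of the 418, 248 had no control cDNA and hence no deviation in the control, so that the first value cannot decide on a pairing. adh1 could not be tested where both strands were counted as named.

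With mRNA cDNAs as library size, 6 log2 fold changes turned negative, tdh1 to -1.28, pgk1 -1.52, fba1 -1.51, tpi1 -2.06, pfk1 -2.10 and pyk1 -1.22. Without control replicate 2, pgk1 went to -0.14 and pfk1 to -1.24. pfk1 was -0.23 with DESeq2, -0.18 in the last 20% and -0.06 without Mkt1-HTP replicate 1. eno101 turned positive with near-identical cDNAs counted once (1.06), in the last 20% (5.85, against a control at 0) and without control replicate 1 (0.059). With a library left out, pgk1 ranged from -0.14 to 3.06, pfk1 from -1.24 to 6.85 and eno101 from -1.57 to 0.059. None of the reversed values passed the threshold, and their cause was not tested. The share of the 10 in all cDNAs, Mkt1-HTP minus control 0.975 percentage points, became -5.50 among mRNA cDNAs and -1.54 outside rRNA, and ranged from 0.809 to 1.14 with a library left out. The share near the 3′ end (difference 30.3) ranged from 3.68 to 56.9 with a library left out, was 4.76 in the last 10% (-29.2 among libraries numbered 1) and 11.8 with near-identical cDNAs counted once (-10.7 among libraries numbered 1). Per gene, the mean Mkt1-HTP share near the 3′ end moved by at least its SD for 7 of the 10 in the last 10%, and for 4 in the last 30%. The share with a deletion (difference 10.9) ranged from 2.76 to 19.1 and was 2.65 with near-identical cDNAs counted once. Stacks held 81.2% of Mkt1-HTP cDNAs on average, 9.47% with identical ends only, 87.6% within 5 nt, and 78.0 to 84.5 with a library left out.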
